A study of Homo sapiens with 13 samples.

Results

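The regions described here are the places in the genome of H1 cells where compound 2, a DNA-binding polyamide, gave a peak in the list for 400 nM and none in the companion list that names no dose. They were chosen by the absence of overlap between the 2 deposited lists, a measured outcome: a 400 nM peak was kept when it shared not a single base with any peak of the undosed list and when its midpoint lay outside 2 crowded blocks, chromosome 10 from 38 to 43 Mb and chromosome 20 from 29 to 30 Mb. Of the 923 peaks of the 400 nM list, 805 (87.2%) had no undosed overlap, 82 of these lay in the blocks, and 723 remained, out of 6064 peaks in the 4 lists of the series. Since the overlap made the set, its size is a description and was not tested. These 723 are called 400 nM-only peaks below.

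H1 is an established line of human embryonic stem cells. The cells were grown in E8 medium on Matrigel and exposed to the compound for 24 h, with 2 libraries at 400 nM compound 2, and nothing in the labels says whether these were separate cultures. The lists also used are the undosed compound 2 list (486 peaks, dose not stated, with 20 nM and 400 nM groups in the series), the 400 nM compound 4 list (1581 peaks, from a group of 2 libraries with the same exposure) and the undosed compound 4 list (3074 peaks). Each list is a single interval file on build hg19 with no value per library, so no result here has replicate error, and read depth is unknown. Intervals printed with shares are exact (Clopper-Pearson) 95% binomial intervals over peaks. They cover counting error only and treat neighbouring peaks as independent. Where a count was 0, the limit given is instead 3 counts of the total.

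Polyamides are chains of N-methylpyrrole and N-methylimidazole rings that lie in the minor groove of DNA. In the structures given by the labels, compound 2 has a turn that lets the chain fold back on itself as a hairpin, so that rings pair side by side and each pair reads a base pair, whereas compound 4 is linear. Both carry psoralen, which bonds to DNA under ultraviolet light, and biotin, by which the bonded fragments are pulled out and sequenced. Sequence and gene content of the peaks were not analysed here, because no hg19 genome or annotation was used, so position is given by chromosome, cytogenetic band and distance.

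The boundary of the set was mostly far from any undosed peak, but a handful of loci lay at its edge. The median distance from a 400 nM-only peak to the nearest undosed compound 2 peak was 2.20 Mb over the 719 peaks with an undosed peak on their chromosome (middle 50%, 0.765 to 4.69 Mb). The other 4 were on chromosome Y, where the undosed list had 0 of 486 peaks, which allows a share of up to 0.617%. Within 1 Mb of an undosed peak lay 216 of the 723 (29.9%, 26.6 to 33.4%), within 100 kb 40 (5.53%, 3.98 to 7.46%) and within 10 kb 12 (1.66%, 0.860 to 2.88%). All these distances depend on how sparse the undosed list is, with 486 peaks over 3096 Mb. They were not compared with those of other positions.

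The 12 closest fell in 6 bands, with 5 of them in 16p11.2 and 2 each in 1q21.1 and 22q11.1. The closest of all, at 22q12.1 (chromosome 22, 28975786 to 28976361, rank 393 in the list), missed the undosed peak ranked 30 by 226 bp. In 16p11.2 the peaks at 34193994 to 34194569 and 34193655 to 34194230 on chromosome 16 missed 1 undosed peak (34194840 to 34195455) by 270 and 609 bp. On the other side of the boundary, the smallest overlaps with an undosed peak were 154 bp at 10q11.21 (chromosome 10, 42791048 to 42791623), 163 bp at 10p11.1 (39094911 to 39095486) and 218 bp at 10p11.1 (39112752 to 39113327). All of these lay in the chromosome 10 block, so the rule left them out whatever their overlap. Outside the blocks the smallest overlaps were 234 bp at 17q21.31 (chromosome 17, 42053417 to 42053992) and 276 bp at 4p16.1 (chromosome 4, 9042583 to 9043158). Small overlaps were few. The median overlap of the 118 shared peaks was 554.5 bp, and 35 of them lay wholly inside an undosed peak.

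The 400 nM-only peaks ran through the whole range of the authors' score, and were a smaller share of its top than of the list. The score has no stated scale and was used only to order peaks within the list. The 6 highest were at Yq12 (chromosome Y, 58827175 to 58827435, score 104), 18q21.2 (chromosome 18, 50318886 to 50319461, score 101), 9q21.12 (chromosome 9, 72652845 to 72653420, score 87.4), 1q42.11 (chromosome 1, 224200834 to 224201409, score 80.8), 13q31.3 (chromosome 13, 94604706 to 94605281, score 62.9) and 21q21.3 (chromosome 21, 30160284 to 30160859, score 56.6). They held ranks 2, 3, 5, 6, 9 and 12 of the list. Apart from the Yq12 and 1q42.11 peaks, each of these stood alone, with the next 400 nM-only peak between 0.973 Mb (21q21.3) and 5.36 Mb (9q21.12) away.

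Below these the scores fell quickly. The median score was 26.0, with 10% of the peaks above 35.6 and the lowest at 23.0, the minimum of the list. The 400 nM-only peaks were 78.3% of the list. They were 5 of its 10 highest peaks, 23 of the 50 highest, 60 of the 100 highest and 88 of the 100 lowest. Peaks outside the blocks that overlapped an undosed peak (109) had a median score of 28.5, and the 82 left out in the blocks had 30.1. Widths hardly varied, as 722 of the 723 measured 576 bp and the Yq12 peak 261 bp.

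**Figure D1:**
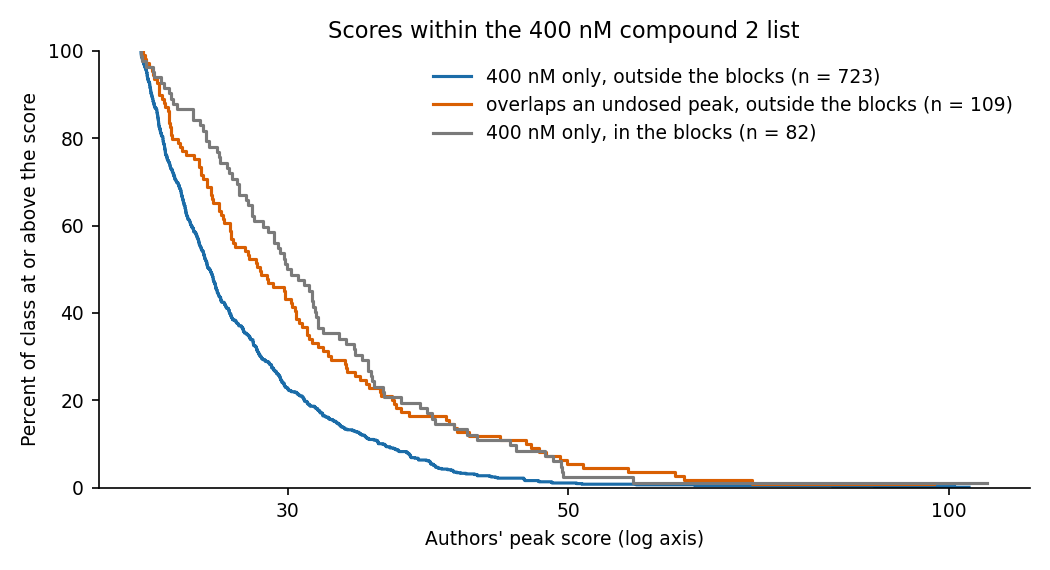
Percent of peaks (vertical axis) at or above each authors' score (horizontal log axis, scale not stated) in the 400 nM compound 2 list, for 723 peaks found only at 400 nM outside the blocks, 109 that overlap an undosed peak outside the blocks, and 82 found only at 400 nM in the blocks. The curve of the 400 nM-only peaks outside the blocks lies lowest over most of the range, with a median of 26.0 against 28.5 and 30.1.

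The peaks were spread over all 24 chromosomes, densest on chromosome 10 even without its block and almost missing from X. Over the 22 autosomes the density ranged from 0.142 per Mb on chromosome 9 to 0.391 per Mb on chromosome 10, with a median of 0.241. Chromosome 10 held 51 of the 723 peaks (7.05%, 5.30 to 9.17%), where it makes up 4.38% of the genome's length, and its density was 1.62 times the autosomal median with the block left out of its length. These lay on both arms, 14 on 10p and 37 on 10q, with 7 in band 10q21.1. Many had low scores, and 19 of the 51 were in the lowest of the 4 score classes described below. In the upper 50% of the list by score, chromosome 10 held 18 of 320 peaks (5.6%, 3.37 to 8.74%). That interval holds the length share of 4.38%. The length share includes the block. Of the 109 peaks shared with the undosed list outside the blocks, 2 lay on chromosome 10 (1.83%, 0.223 to 6.47%). That interval overlaps the one of the 400 nM-only peaks. On the same chromosome lay 28 compound 4 peaks found only at 400 nM (0.207 per Mb).

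Chromosome 16 came next at 0.343 per Mb (31 peaks), followed by chromosomes 6 (0.316 per Mb, 54 peaks), 21 (0.312 per Mb, 15 peaks) and 7 (0.308 per Mb, 49 peaks). On chromosome 16, loci of 7 and 6 peaks described below made up much of the count. When peaks within 100 kb of each other were joined, it held 17 loci (0.188 per Mb), below the autosomal median of 0.217 loci per Mb, while chromosome 10 kept 46 loci and stayed highest at 0.352 per Mb. On chromosome 21, 4 of the 15 peaks were on the short arm, 3 in 21p11.1 (acen) and 1 in 21p11.2 (gvar).

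Chromosome X held 2 of the 723 peaks (0.277%, 0.0335 to 0.996%), where it makes up 5.02% of the length, or 0.0129 per Mb. Over the whole 400 nM compound 2 list X had 5 of 923 (0.542%, 0.176 to 1.26%). Of these 5, 3 overlapped an undosed peak and were removed by the rule. The compound 4 peaks found only at 400 nM were also few there (3 of 715, 0.420%, 0.0866 to 1.22%), while the undosed compound 2 list had 11 of 486 (2.26%, 1.14 to 4.01%). The 400 nM-only peaks on X lay at Xq11.1 (62812662 to 62813237, rank 422), 32.8 kb from an undosed compound 2 peak, and at Xp22.31 (8029706 to 8030281, rank 845). Chromosome Y held 4, of which 3 stood in a row in Yq12 about 6 kb apart (gaps of 6.29 and 6.26 kb) and had ranks 2, 44 and 116. The fourth, at Yq11.21 (13719215 to 13719790, rank 87), lay 320 kb from the centromere. Lengths include unsequenced stretches and were not adjusted for the number of copies of X and Y in the cells.

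**Figure D2:**
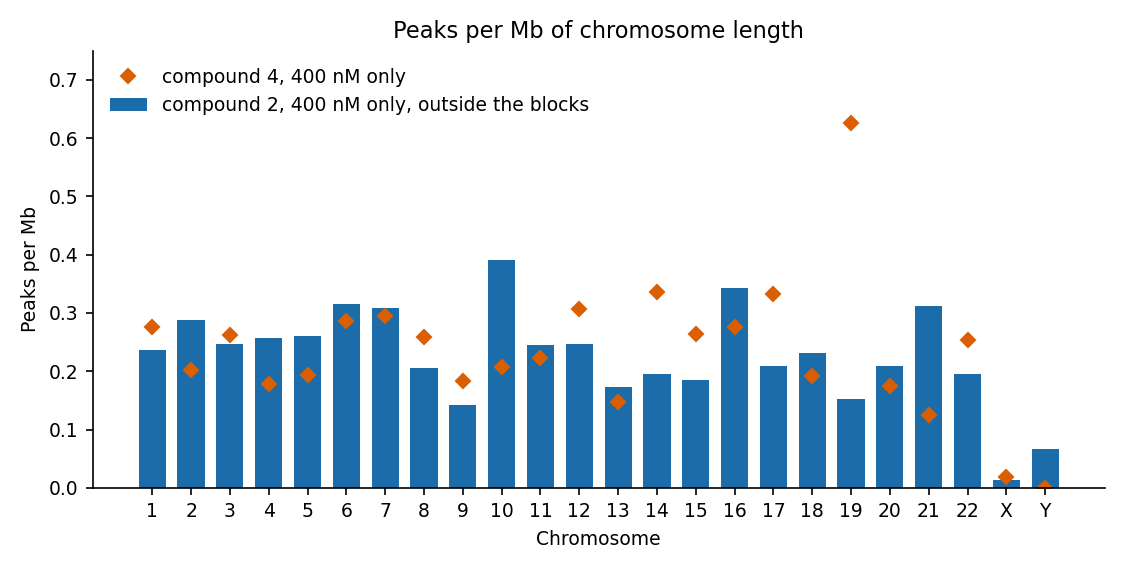
Peaks per Mb (vertical axis) on each chromosome (horizontal axis). Bars show the 723 compound 2 peaks found only at 400 nM outside the blocks, with the block lengths taken off chromosomes 10 and 20, and diamonds the 715 compound 4 peaks found only at 400 nM. The bar of chromosome 10 is the highest (0.391), that of X the lowest (0.0129), and chromosome 19 shows the widest gap between bar (0.152) and diamond (0.626), where 14 of the 37 compound 4 peaks lie in band 19q11 and the diamond would stand at 0.389 without them.

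By cytogenetic band, the 400 nM-only peaks lay in the darkest Giemsa bands more often than their length gave. Giemsa staining divides chromosomes into light bands, generally rich in genes and in G and C bases, and dark bands, generally poor in genes and rich in A and T. The band table grades them from gneg (light) through gpos25, gpos50 and gpos75 to gpos100 (darkest), and marks centromeres as acen and variable heterochromatin as gvar. Bands of class gpos100 held 180 of the 723 peaks (24.9%, 21.8 to 28.2%) and make up 16.1% of the length, a density of 0.361 per Mb. Light bands held 281 (38.9%, 35.3 to 42.5%) of the peaks with 42.2% of the length, or 0.215 per Mb. Class gpos25 had 35 peaks (4.84%, 3.39 to 6.67%) with 7.01% of the length, and gpos50 and gpos75 had 14.0% and 14.1% of the peaks with 13.3% and 13.1% of the length.

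The bands acen and gvar held 9 and 15 peaks (1.24% and 2.07%, with 3.39% and 4.15% of the length). With acen, gvar and stalk bands set aside, gpos100 still held 180 of 699 peaks (25.8%, 22.5 to 29.2%) against 17.6% of the remaining length. The undosed compound 2 list had 21.2% (17.6 to 25.1%) of its peaks in gpos100 bands, an interval that overlapped that of the 400 nM-only peaks. The 715 compound 4 peaks found only at 400 nM had 13.3% (10.9 to 16.0%) in gpos100 bands and 51.5% (47.7 to 55.2%) in light bands. The intervals of this set and of the 400 nM-only compound 2 peaks did not overlap in either class. The 2 sets were cut unequally. Of the 400 nM peaks, 715 of 1581 for compound 4 and 805 of 923 for compound 2 had no undosed overlap. No test was made of this or any other difference between sets of peaks, because peaks of a single list are not replicates of a treatment.

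**Figure D3:**
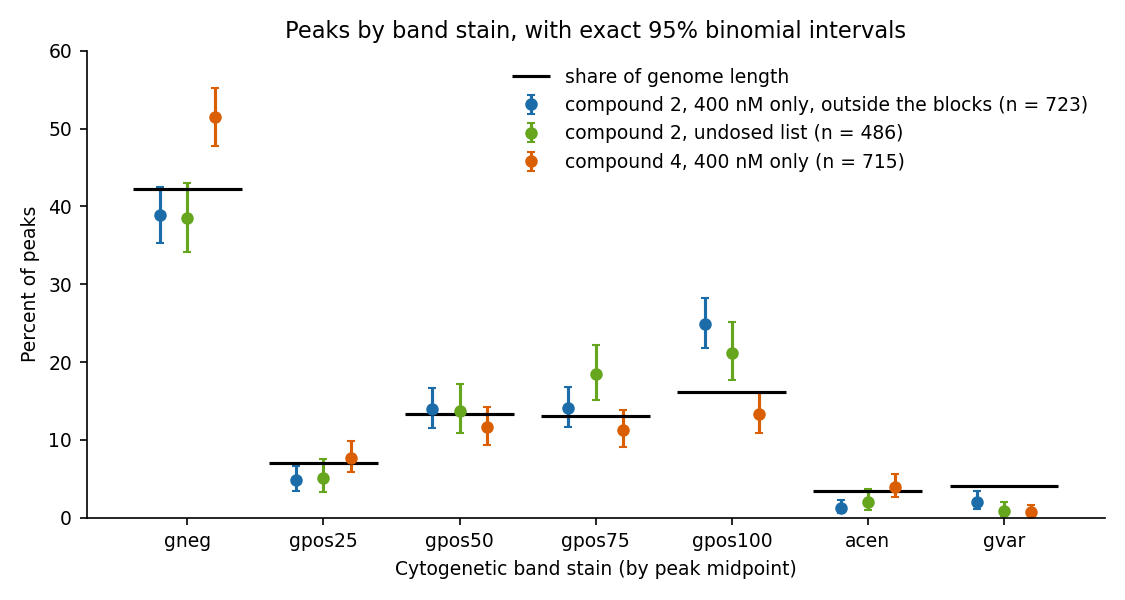
Percent of peaks (vertical axis) by stain class of the band that holds the midpoint (horizontal axis), for 723 compound 2 peaks found only at 400 nM outside the blocks, the 486 peaks of the undosed compound 2 list and 715 compound 4 peaks found only at 400 nM. Points are shares with exact 95% binomial intervals, and black lines the share of genome length. In gpos100 the compound 2 points are at 24.9% and 21.2% and the compound 4 point at 13.3%, around a length share of 16.1%.

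Peaks with high and low scores differed in where they lay. Split by score into 4 classes of 180 or 181 peaks, the share in gpos100 bands went from 17.7% (12.4 to 24.0%) of the highest class through 21.5% and 26.0% to 34.4% (27.5 to 41.9%) of the lowest. The length share of 16.1% lay inside the interval of the 2 classes above a score of 26.0 and outside those of the 2 classes below it. With peaks within 1 kb merged it also lay outside the interval of the second class (17.1 to 30.1%). The order of the 4 shares was the same with that merging (18.5, 23.1, 27.7 and 34.9%) and without chromosome 10 (29, 37, 42 and 56 of 168 peaks each). In the compound 4 peaks found only at 400 nM the 4 shares were 10.6, 12.8, 14.0 and 15.7%, and in the undosed compound 2 list 19.7, 17.4, 23.8 and 24.0%, with intervals that overlapped between the highest and the lowest class.

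The acen and gvar bands held most of their peaks in the highest class, with 14 of 181 peaks (7.73%, 4.29 to 12.6%) there and 5, 2 and 3 peaks in the others. With peaks within 1 kb merged, the counts were 11, 4, 1 and 2. Several of these peaks were neighbours, with 7 in 1 locus at 16q11.2 and 3 in 1 at Yq12. The compound 4 peaks found only at 400 nM had 12, 10, 8 and 3 peaks in these bands (6.70, 5.59, 4.47 and 1.69%). The 24 peaks of these bands had a median score of 30.7, against 25.3 for the 180 in gpos100 bands. The classes were laid out after the values were seen.

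**Figure D4:**
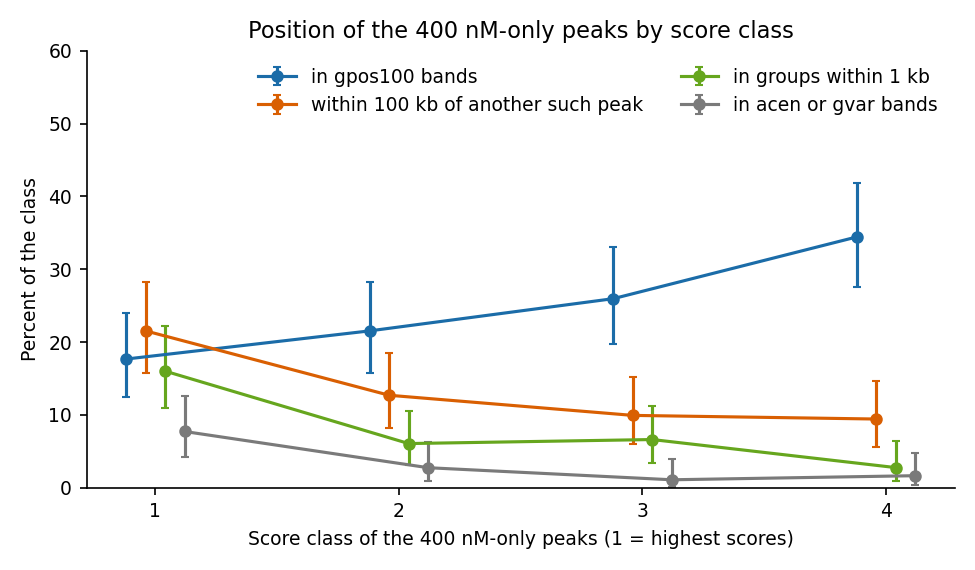
Percent of each score class (vertical axis) of the 723 compound 2 peaks found only at 400 nM outside the blocks, from the highest scores (1) to the lowest (4) on the horizontal axis, that lay in gpos100 bands, within 100 kb of another such peak, in groups within 1 kb, or in acen or gvar bands. Bars are exact 95% binomial intervals. The gpos100 share rises from 17.7% to 34.4%, and the share in groups within 1 kb goes from 16.0% to 2.78%.

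Most 400 nM-only peaks stood alone. Joining those at most 1 kb apart gave 691 regions, of which 666 were single peaks, 22 held 2, and 1 each held 3, 4 and 6. Within a region neighbours often overlapped: 46 peaks (6.36%, 4.70 to 8.40%) overlapped another, in 23 neighbouring pairs whose starts were 199 to 419 bp apart (median 224 bp). Peaks in groups had a median score of 29.8 (57 peaks), and lone peaks 25.9 (666 peaks). In the highest score class 16.0% (11.0 to 22.2%) of peaks were in such groups, in the lowest 2.78% (0.908 to 6.36%).

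The largest group was at 1q42.11, where 6 peaks covered 4818 bp (chromosome 1, 224199583 to 224204400), 533 kb from the nearest undosed compound 2 peak. Their scores ran from 80.8 down to 24.7, and band 1q42.11 held no peak of the undosed compound 2 list or of either compound 4 list. The next, at 1q21.2 (chromosome 1, 149033600 to 149035638), had 4 peaks in 2039 bp with scores of 48.5, 47.3, 42.2 and 24.0. The third, at 16q11.2 (chromosome 16, 46497552 to 46500404), had 3 peaks with scores of 46.1, 29.8 and 25.6. It was part of a wider locus of 7 peaks in 59.3 kb (46441150 to 46500404), which held every 400 nM-only peak of that band and had no undosed compound 2 peak within 12.2 Mb.

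Across the centromere of chromosome 16 lay a locus in 16p11.2, with 6 peaks in 13.5 kb (34183235 to 34196773). Here an undosed peak stood among them, at 34194840 to 34195455, so the same short stretch had both lists but different intervals. With the distance widened to 100 kb, 97 of the 723 peaks (13.4%, 11.0 to 16.1%) had another in reach, in 31 loci of 2 and 8 of 3 or more. With peaks within 1 kb merged first, the share was 6.80%. Besides those above, the loci of 3 were at 1q21.1, with 5 undosed compound 2 peaks within 100 kb of it, and at 10p12.31, 16q24.2 and Yq12, with none.

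Counted by band, 392 of 862 bands held at least 1 peak. The most were in 10q21.1 and 16q11.2 with 7 each and in 1q42.11, 16p11.2, 3p24.3 and 7q21.11 with 6 each. The bands differed in kind. The peaks of 16q11.2, 1q42.11 and 16p11.2 formed 3, 1 and 4 regions, whereas those of 10q21.1, 3p24.3 and 7q21.11, all gpos100 bands, were 7, 6 and 6 separate regions spread over 7.5 to 8.9 Mb of band, with best ranks of 138, 243 and 301. In 10q21.1 the 7 peaks stood 137 kb or more apart.

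With the blocks gone, the share of peaks near centromeres was below the share of length. Within 5 Mb of a centromere lay 57 peaks (7.88%, 6.03 to 10.1%) and 11.1% of the length, and within 1 Mb 20 peaks (2.77%, 1.70 to 4.24%) and 4.94%. With the blocks left in, the share within 5 Mb was 17.3%, and all 82 peaks left out in them lay within 1 Mb of a centromere. The lengths include unsequenced stretches, and also the blocks, whose peaks the rule took out. These shares therefore cannot show whether peaks were scarce near centromeres. The peaks inside centromeric bands were 3 at 21p11.1, 2 overlapping ones at 22q11.1 (chromosome 22, 16850276 to 16851060, ranks 59 and 233), and 1 each at 2q11.1, 3p11.1, 7q11.1 and Xq11.1.

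At chromosome ends, 18 peaks (2.49%, 1.48 to 3.91%) lay within 1 Mb, where 1.55% of the length lies. The interval holds that length share. Over the whole 400 nM compound 2 list the share was 1.95% (1.16 to 3.06%). The 18 peaks were on 12 arms of 11 chromosomes and included the 3 at Yq12, 3 in 15q26.3 and 2 in 7p22.3. Of the 109 shared peaks outside the blocks 0 lay there, which allows a share of up to 2.75%. In the undosed compound 2 list 2 of 486 did (0.412%, 0.0499 to 1.48%), and among compound 4 peaks found only at 400 nM 6 of 715 (0.839%, 0.309 to 1.82%). Within 5 Mb of an end the share was 7.19% (5.42 to 9.32%), with 7.75% of the length.

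Few 400 nM-only peaks coincided with a compound 4 peak, and few did over the whole 400 nM compound 2 list. An undosed compound 4 peak overlapped 9 of the 723 (1.24%, 0.571 to 2.35%), with 1.84% over the whole 400 nM compound 2 list, and a 400 nM compound 4 peak overlapped 3 (0.415%, 0.0857 to 1.21%), with 0.325% over the whole list. None of the 723 overlapped both, which allows a share of up to 0.415%. Both counts are close to the share over the whole list, of which the 400 nM-only peaks are 78.3%. Of the 109 peaks shared with the undosed compound 2 list outside the blocks, 7 overlapped an undosed compound 4 peak (6.42%, 2.62 to 12.8%). A 400 nM compound 4 peak overlapped 0 of all 118 shared peaks, which allows a share of up to 2.54%. In the undosed compound 2 list itself, 51 of 486 peaks overlapped an undosed compound 4 peak (10.5%, 7.91 to 13.6%). The rule removed every peak that overlapped that list, and with it any site common to both undosed lists. The shares of 6.42% and 1.24% therefore depend in part on the rule, and their difference was not tested. Both were read against the same compound 4 list.

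The 3 that met a 400 nM compound 4 peak stood far from the top of either list. At 2p23.3 (chromosome 2, 24548541 to 24549116) the compound 2 peak ranked 358 of 923 and lay wholly inside the compound 4 peak ranked 1275 of 1581. At 6q16.3 (chromosome 6, 102344614 to 102345189) the ranks were 899 and 1456, with 569 bp in common. At 1q21.1 (chromosome 1, 145083824 to 145084399) they were 433 and 621, with 253 bp in common, and an undosed compound 2 peak lay 1531 bp away.

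The 9 that met an undosed compound 4 peak had ranks of 120 to 870 in their own list, and their partners ranked between 1397 and 2924 of 3074. The 3 with the highest scores were at 3p24.2 (chromosome 3, 24410607 to 24411182, 378 bp in common), 2q24.1 (chromosome 2, 157745448 to 157746023, 527 bp) and 5q23.1 (chromosome 5, 116288081 to 116288656, 516 bp). The overlap at 1q23.3 (chromosome 1, 165084317 to 165084892) was of 31 bp only. Within 100 kb of an undosed compound 4 peak lay 152 of the 723 (21.0%, 18.1 to 24.2%), and of the shared peaks outside the blocks 18.3% (11.6 to 26.9%). The median distance to that list was 308 kb for the 400 nM-only peaks and 299 kb for the shared ones.

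**Figure D5:**
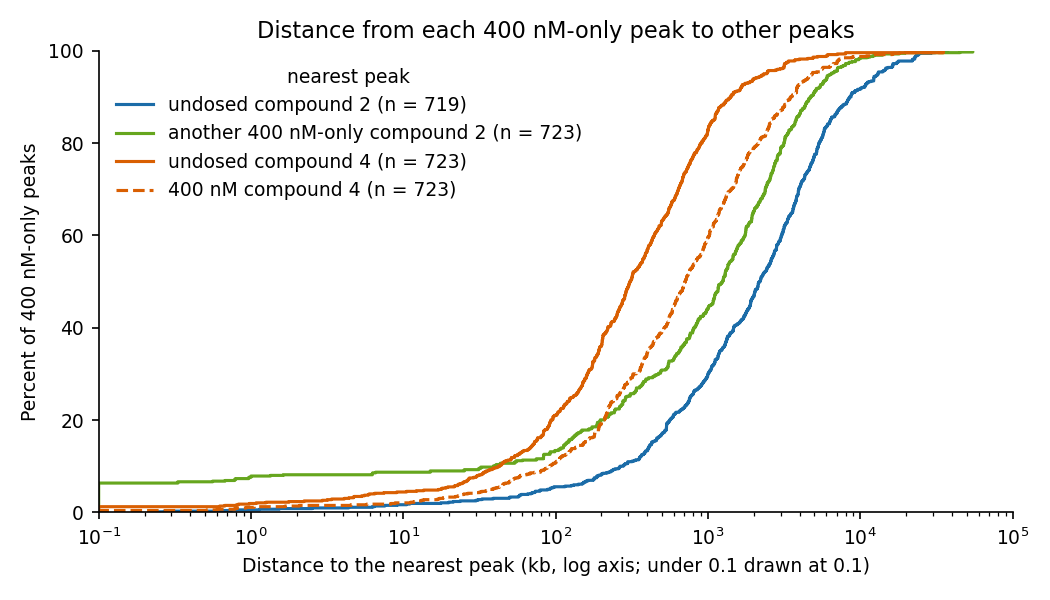
Percent of the compound 2 peaks found only at 400 nM outside the blocks (vertical axis) with a nearest peak at or under a given distance (horizontal log axis, kb; distances under 0.1 kb drawn at 0.1). Lines stand for the nearest undosed compound 2 peak (n = 719), another such peak, and the nearest undosed and 400 nM compound 4 peak (n = 723 each). Medians are 2197 kb, 1244 kb, 308 kb and 708 kb, to be read with the unequal sizes of the sets searched (486, 723, 3074 and 1581 peaks).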

How the data were processed

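Reads were handled on hg19 with CASAVA 1.8.2, Bowtie 1.0 and HOMER (version unstated), per the submitters' processing notes. Peak settings, pooling and any use of the input were not given in the sources used here. The deposited files hold chromosome, start, end and a score per peak made by the authors, with no stated scale. Starts were read as counted from 0 and printed from 1. Read depth per library is unknown.

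Overlap meant at least 1 bp, distances run between interval edges, and bands and distances to centromeres and ends use midpoints. Chromosome lengths came from GenomeInfoDb 1.38.1 and bands from circlize 0.4.16. Python 3.11.15 with numpy 2.4.6, pandas 2.3.3, scipy 1.17.1 and matplotlib 3.10.9 did the rest. The positional functions were tested on 20 simulated lists of 500 peaks and gave the known answer in 20.

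The set and all measures were chosen with earlier results of these data known. Named peaks followed a rule: the 6 highest scores, those nearest the overlap boundary, overlaps with compound 4, the 3 largest groups and the fullest bands. Other peaks named (on X and Y, in wider loci, in centromeric bands and at chromosome ends) were picked after their values were seen. Compounds 5 and 6 and the input were not analysed here, nor were genes, motifs and repeats. Which groups the undosed lists came from was not settled.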

Additional observations from a re-analysis of the deposited data

How the results depend on the processing

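Of the 8 results set out at the start, most alternatives stayed within the exact interval of the printed value, or within 1.5 times for the count of peaks. With the blocks left in, the share with another such peak within 100 kb was 22.0% (13.4% without them), the share within 1 Mb of an undosed compound 2 peak 37.0% (29.9%), the share within 5 Mb of a centromere 17.3% (7.88%) and the share on chromosome 10 14.2% (7.05%). Using the upper 50% of the list by score left 320 peaks. Merging within 1 kb lowered the share with a neighbour within 100 kb to 6.80%, so that share rests in large part on adjoining peaks. Other distances moved the shares by construction: neighbours within 10 kb 8.71% and 1 Mb 44.1%, undosed peaks within 10 kb 1.66% and 100 kb 5.53%, centromeres within 1 Mb 2.77% and 10 Mb 13.1%. In alternatives added after seeing the data, the gpos100 share was 20.3% in the upper 50% of the list and between 22.4% and 26.0% elsewhere. The planned results on genes, target hexamers, repeats and satellites (5 results) were not run, as no hg19 genome or annotation was used. No paired analysis was possible because each list is a single file without values per library, and for that reason no library could be left out.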

Other observations

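The 82 peaks left out in the 2 blocks, 63 on chromosome 10 and 19 on chromosome 20, were set apart by position, so their closeness to centromeres and to each other follows from the choice. Of these 57.3% (45.9 to 68.2%) had their midpoint in centromeric bands. An undosed compound 4 peak lay within 100 kb of 1 of the 82 (1.22%, 0.0309 to 6.61%), and of 21.0% of the 723 peaks outside the blocks. These values describe 2 short stretches of the genome and were not tested.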
